A study of Homo sapiens with 2 samples.

Results

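This account covers MEIS1, MEIS2, RUNX2, SOX4, TCF12, HMGA2, FOXC1 and SIRT1, 8 regulators of transcription that have been described as targets of the microRNA miR-204, in HEK-293 cells that received a miR-204 mimic. The members were taken by gene name from the annotation of the arrays, and 17 probes of the 41000 on each array carry one of the 8 names, of 30484 names in all. HEK-293 is an established line from human embryonic kidney. Cells of 1 group were transfected with a miR-204 mimic and cells of the control group with scramble oligos, and the labels give 75 nM of oligonucleotide and 48 h before harvest. RNA of the 2 groups was hybridized together on an Agilent 2-colour array, with the control in Cy3 and miR-204 in Cy5, and again on a dye-swap array with the dyes exchanged. No second transfection is named for either group, so the 2 arrays were taken as 1 replicate and the variation from culture to culture is unknown for every value below. The level of miR-204 itself was not analysed here.

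A microRNA guides a silencing complex to sites in messenger RNAs, mostly in the 3′ untranslated region, that pair with its seed, the bases near its 5′ end. The paired messenger RNA can be degraded or translated less, so a target may lose protein with little loss of RNA, and these arrays read RNA only. MiR-204 is known from the eye, bone and fat tissue, where regulators of development such as MEIS2 and RUNX2 are among the targets described for it. MiR-211 is its close relative, encoded by another gene.

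The mature strands below, from RefSeq on GRCh38.p14, are shown because the seed decides which messenger RNAs a mimic can pair with. Capitals mark the seed, bases 2 to 8 counted from the 5′ end.
hsa-miR-204-5p: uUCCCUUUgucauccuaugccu
hsa-miR-211-5p: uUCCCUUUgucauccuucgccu
These were the only mature strands with this seed in the RefSeq table. The gene of the first lies on the minus strand of chromosome 9, with the mature strand from 70810031 to 70810052, and that of the second on the minus strand of chromosome 15, from 31065095 to 31065116. Relative to miR-204-5p, miR-211-5p carries A17U and U18C, both outside the seed. A messenger RNA that pairs with the whole seed holds AAAGGGA.

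Each spot of these arrays gives an intensity in each dye, and a probe was called well above background where the scanner software set that flag. Log2 intensities were quantile normalized over the 4 channels, and each ratio is the log2 of miR-204 over control on 1 array, with the dye-swap array turned. A probe was counted where it was well above background on both arrays in at least 1 of the 2 RNAs. By this rule 25270 probes were counted, and 14 of the 17 member probes, at least 1 for each of the 8 genes. Of the member probes, 12 passed the background flag in all 4 channels, and none was saturated. Over all probes, the share well above background lay between 57.2% and 66.1% in the 4 channels, the lowest being miR-204 on the dye swap. Markers of the cell line were as its label says for NEFL, NEFM, VIM, KRT8 and KRT18, each with a probe that passed the flag in all 4 channels. The kidney regulator PAX2 passed the flag in no channel, nor did any probe of 6 markers of blood, liver, heart or pancreas. In RNA pooled from a culture, fewer cells that use a gene and less RNA per cell cannot be told apart.

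**Figure D1:**
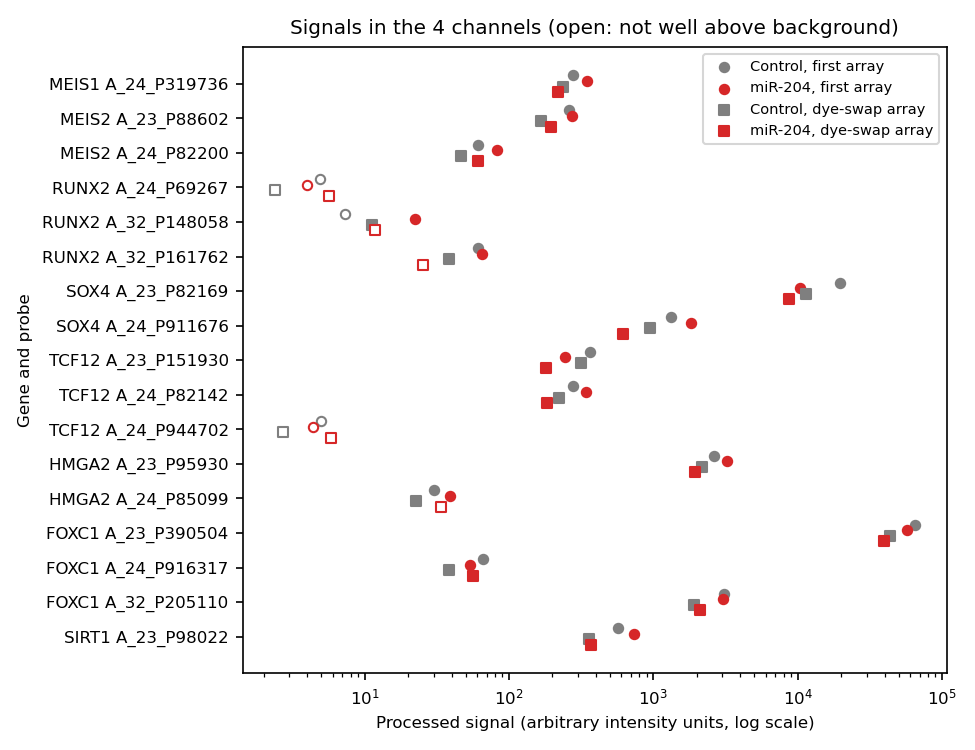
Processed signal of each of the 17 member probes (horizontal, arbitrary intensity units, log scale) in control RNA (grey) and miR-204 RNA (red) on the first array (circles) and the dye-swap array (squares), open symbols being not well above background. Of the 17 probes, 14 were counted, and the signals of different probes are not comparable as levels of RNA.

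No member probe differed by 2-fold or more in the mean of the 2 arrays. This number was 0 of 14 lower, where 0.518% of all counted probes met this size in the mean and had 1 sign on both arrays, and 0 of 14 higher, where 0.123% were. At 1.5-fold, 2 of 14 were lower, 1 probe each of SOX4 and TCF12, and 0 were higher. The corresponding shares of all counted probes were 2.62% and 1.27%. The TCF12 probe fell short of 1.5-fold with either loess setting, at -0.52 and -0.53, and on the first array alone, at -0.57. The SOX4 probe fell short of it on the dye swap alone, at -0.38, where the other SOX4 probe was past it, at -0.64. On that array an HMGA2 probe was past 1.5-fold higher, at 0.63, with its miR-204 signal not well above background. The lowest mean log2 ratio among the members was -0.69, for the TCF12 probe, and the highest was 0.50, for a probe of HMGA2. The median over the 14 probes was 0.07, beside 0.002 over all counted probes. Probes of a gene share their target, so these counts are not counts of independent regulators.

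The direction on the arrays was mixed. A total of 3 member probes were lower on both arrays, 1 each of FOXC1, SOX4 and TCF12, against 23.2% of all counted probes. Another 4 were higher on both, with 1 probe of HMGA2, 2 of MEIS2 and 1 of SIRT1, against 24.2% of all counted probes. The remaining 7 turned sign between the arrays. Of these, 5 were higher on the first array and lower on the dye-swap array, as were 27.9% of all counted probes, and 2 went the other way, as did 24.5%. These shares of 21.4%, 28.6%, 35.7% and 14.3% for 14 probes lie on either side of the background. The first array alone had 9 of the 14 ratios above 0, or 64.3%, beside 52.2% of all counted probes. The dye swap had 6, or 42.9%, beside 48.8%.

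The median gap between the log2 ratios of a probe on the 2 arrays was 0.40 over the member probes and 0.33 over all counted probes. Given as an SD over the 2 arrays, these medians were 0.29 and 0.23. The dyes were exchanged between the arrays, so this gap can include a dye effect of the probe, which spots of 1 array share. The SD over the 2 arrays is therefore not the error of the mean of the arrays. Spots of the same probe on 1 array varied far less. Over 140 probes spotted 10 times and well above background in all 4 channels, the median SD of the log2 ratio over the spots was 0.05 on each array. Each member probe was a single spot, so the spread over spots was not measured for them.

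**Figure D2:**
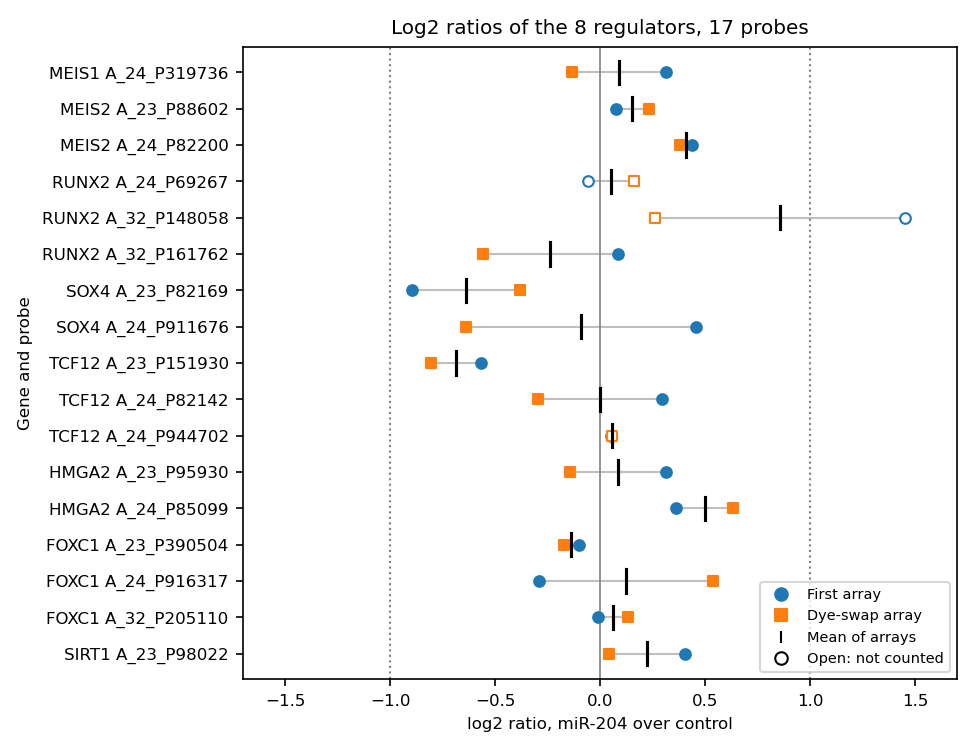
Log2 ratio of miR-204 over control for each member probe (horizontal) on the first array (circles) and the dye-swap array (squares), with the mean of both as a bar, dotted lines at 2-fold, and open symbols for the 3 probes not counted. The means of the 14 counted probes lie between -0.69 and 0.50, and the lowest means are those of a TCF12 probe at -0.69 and a SOX4 probe at -0.64.

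TCF12 encodes a basic helix-loop-helix E protein that pairs with lineage factors on E-box sites. Its probe A_23_P151930 lies on chromosome 15 of hg18 from 55352693 to 55352752. On the first array the processed signal was 364.3 for control and 245.9 for miR-204. On the dye-swap array it was 314 for control and 179.7 for miR-204. The miR-204 signal was thus below the control signal of the same array each time. The log2 ratios were -0.57 and -0.81, with a mean of -0.69 ± 0.17 (SD over the 2 arrays), a signal 1.61-fold lower with miR-204. Of all counted probes, 1.88% had a mean ratio at or below this value.

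The second TCF12 probe did not share this difference. A_24_P82142, from 55367246 to 55367305, lies 14553 bases nearer the 3′ end of the gene. On the first array its signal was 278.4 for control and 340.6 for miR-204, against 222 and 182.1 after the dye swap. Its ratios of 0.30 and -0.29 cancelled to a mean of 0.001, and the ratio turned with the dye. The probe A_24_P944702, which carries the gene name for a separate cDNA (AK022018), passed the background flag in no channel, so no ratio is read from it. With both counted probes averaged, TCF12 was at -0.34. The difference of 0.69 between its 2 probes was larger than that of 93.5% of the 4973 gene names with at least 2 counted probes placed on 1 strand, whose median was 0.19.

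SOX4 encodes a high mobility group box factor of the SOXC group, active in progenitor cells and many tumours. Its probe A_23_P82169, on chromosome 6 of hg18 from 21704964 to 21705023, had on the first array signals of 19629.5 for control and 10329.1 for miR-204. On the dye-swap array these were 11451.6 and 8683.6. Both miR-204 signals lay under the control signal of the same array. The log2 ratios were -0.90 and -0.38, with a mean of -0.64 ± 0.36 (SD over the 2 arrays), or 1.56-fold lower, and 2.38% of counted probes had a mean ratio at or below it.

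The second SOX4 probe differed from the first on 1 array. A_24_P911676, from 21705980 to 21706039, lies 1016 bases nearer the 3′ end. Its signals on the first array were 1323.4 for control and 1810.6 for miR-204, so that the ratio was 0.46. On the dye-swap array they were 953.7 and 614.2, and the ratio was -0.64. The mean was -0.09, and the gap of 1.09 between the arrays was the widest of the 14 counted member probes. The mean over both SOX4 probes was -0.37. On the dye-swap array, then, both SOX4 probes were lower, while on the first array the probes had opposite signs.

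FOXC1 encodes a forkhead factor of eye and mesenchyme development. Its probe A_23_P390504, on chromosome 6 of hg18 from 1557279 to 1557338, had on the first array signals of 64660.7 for control and 57656.1 for miR-204, and after the dye swap 43517 and 39552.9. The log2 ratios of -0.10 and -0.17 lay close together, with a mean of -0.14 ± 0.05 (SD over the 2 arrays), and 27.5% of all counted probes were at or below it. The other FOXC1 probes had means of 0.06 and 0.12. Of these, A_32_P205110, from 1558857 to 1558916, had ratios of -0.01 and 0.13. A_24_P916317, which the files tie to an accession (AF343007) with no position, had ratios of -0.29 and 0.54, and thus turned sign between the arrays. Averaged over its 3 probes FOXC1 was at 0.02.

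RUNX2, the runt domain factor needed for bone formation, was measured near background. The probe A_32_P161762, on chromosome 6 of hg18 from 45626194 to 45626253, had on the first array signals of 61.35 for control and 64.8 for miR-204. On the dye-swap array it had 38.15 for control and 25.3 for miR-204, and the last did not pass the background flag. Its log2 ratios were 0.09 and -0.56, with a mean of -0.24 ± 0.46 (SD over the 2 arrays). For A_32_P148058, with ends at 45404144 and 45404403, miR-204 passed the background flag on the first array alone and control on the dye swap alone, so no ratio is read from it. A_24_P69267, from 45622775 to 45622834, passed the flag in no channel. The RUNX2 value therefore rests on 1 probe, with miR-204 measured above background on 1 of the 2 arrays.

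MEIS1 and MEIS2 encode homeodomain proteins of the TALE class, which bind DNA together with PBX and HOX proteins. The MEIS1 probe A_24_P319736, on chromosome 2 of hg18 from 66652830 to 66652889, had on the first array signals of 279.4 for control and 345.6 for miR-204, and after the dye swap 238.3 and 218.5. The log2 ratio turned from 0.31 to -0.14, with a mean of 0.09 ± 0.32 (SD over the 2 arrays). MEIS1 thus showed no common direction.

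Both probes of MEIS2 were higher with miR-204 on both arrays. A_24_P82200, on chromosome 15 of hg18 from 35116349 to 35116408, had on the first array signals of 61.2 for control and 82.65 for miR-204, and after the dye swap 46.4 and 60.5. The ratios of 0.44 and 0.38 differed little, with a mean of 0.41 ± 0.04 (SD over the 2 arrays), or 1.33-fold, and 95.7% of counted probes were at or below it. A_23_P88602, from 34970845 to 34970904 and 145504 bases nearer the 3′ end, had signals of 261.9 and 274 on the first array, control before miR-204, and of 166.1 and 196.2 after the dye swap. Its ratios of 0.07 and 0.23 gave a mean of 0.15. The MEIS2 mean over both probes was 0.28. With normexp background correction and loess, and with uncorrected mean signals and loess, the probe A_24_P82200 was at 0.17, and its direction was kept. It passed the background flag in all 4 channels. Its control signals were nonetheless about as low as the 61.35 and 38.15 of the RUNX2 probe.

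HMGA2 encodes an AT-hook protein of chromatin, used in embryonic tissue and regained in many tumours. The probe A_23_P95930, on chromosome 12 of hg18 from 64646056 to 64646115, had on the first array signals of 2643.1 for control and 3220.7 for miR-204. On the dye-swap array it had 2163.8 and 1952. The ratio turned from 0.31 to -0.15, with a mean of 0.08. The other probe, A_24_P85099, has its ends at 64518599 and 64643300, a span of 124702 bases. Its signals were 30.2 and 39.1 on the first array, control before miR-204, and 22.8 and 33.95 after the dye swap, where the last did not pass the background flag. Its ratios were 0.36 and 0.63, and the mean of 0.50 ± 0.19 (SD over the 2 arrays) was at or above that of 97.6% of counted probes. With mean signals that were not background-corrected, and loess, this mean was 0.15. The bright HMGA2 probe and the dim one therefore differed, and the higher value rests on signals near background.

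SIRT1, an NAD-dependent deacetylase of histones and transcription factors, had 1 probe, A_23_P98022, on chromosome 10 of hg18 from 69347566 to 69347625. On the first array the signal was 565.7 for control and 739.2 for miR-204, and after the dye swap 355.9 and 368.1. The log2 ratios were 0.40 and 0.04, with a mean of 0.22 ± 0.25 (SD over the 2 arrays). The direction was the same on both arrays, but the ratio on the dye swap was close to 0.

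**Figure D3:**
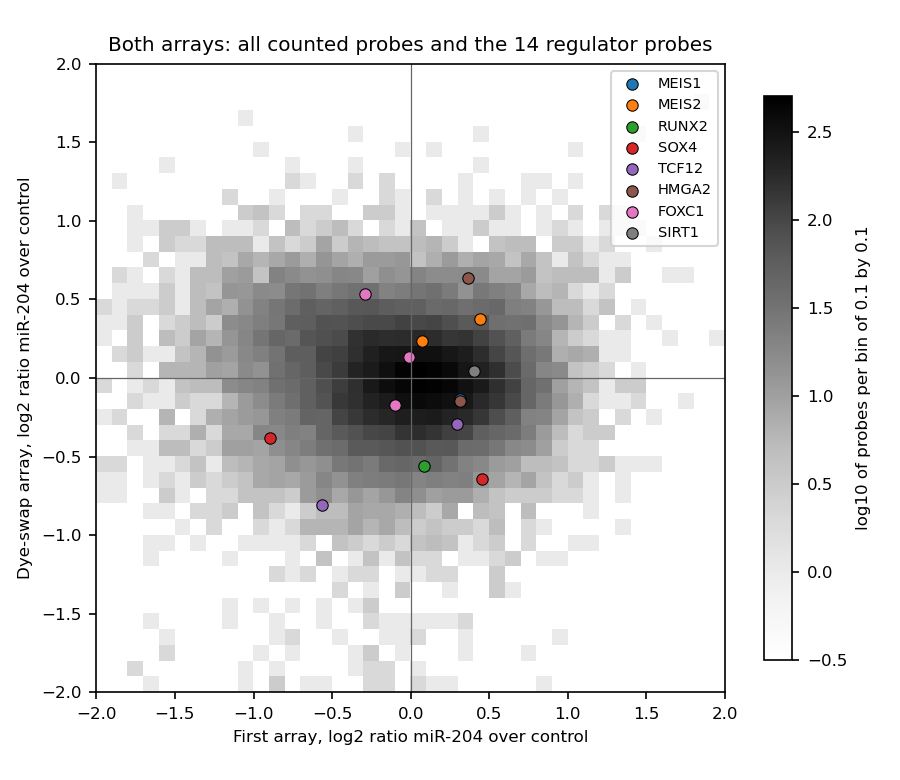
Log2 ratio of miR-204 over control on the first array (horizontal) and the dye swap (vertical) for all counted probes as a density (grey, log10 of probes per bin, with probes past 2 on either axis not drawn and some bins at the upper right under the key) and for the 14 counted member probes (coloured by gene, with MEIS1 lying under an HMGA2 probe). Of the 14, 3 lie in the lower left, 4 in the upper right and 7 in the other corners, where the sign turned between arrays.

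The counted probes of a gene were also compared by their position. For the 5 members with at least 2 counted probes of known position, MEIS2, SOX4, TCF12, HMGA2 and FOXC1, the probe nearer the 5′ end had the larger mean ratio in size in 5 of 5 genes, whether lower or higher. This was so for 56.6% of the 4973 gene names that could be compared in the same way. With the first array alone it was 5 of 5, against 55.1%, and with the dye swap alone 4 of 5, against 59.9%, SOX4 being the exception. The single arrays make up the mean, so their counts are no separate evidence. By control signal, the probe nearer the 5′ end was the dimmer in HMGA2 and MEIS2 and the brighter in SOX4, TCF12 and FOXC1. The pattern was picked out after the values were seen, and the part of probe position, exon, transcript form or signal in it was not tested. The gap between the probes of a gene was 0.55 for SOX4 and 0.41 for HMGA2, larger than that of 88.5% and 79.5% of these gene names, and 0.26 for MEIS2, larger than that of 60.6%. In SOX4 and TCF12 the 1.5-fold difference in the mean of the arrays was thus a value of 1 probe and not of both. For SOX4 the probe past 1.5-fold changed with the array, being the one nearer the 3′ end on the dye swap alone.

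The range over other ways of processing the arrays was narrower than the gap between the arrays for 12 of the 14 probes, the 2 exceptions being A_24_P85099 of HMGA2 and A_24_P82200 of MEIS2. Under the other settings the TCF12 probe A_23_P151930 lay between -0.71 and -0.52, and the SOX4 probe A_23_P82169 between -0.66 and -0.62. Direction was kept for 12 of the 14 probes under the 7 settings that gave values of their own with both arrays used, the others repeating a value already given. The exceptions were the second probes of SOX4 and TCF12, A_24_P911676 and A_24_P82142, whose means lay near 0.

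**Figure D4:**
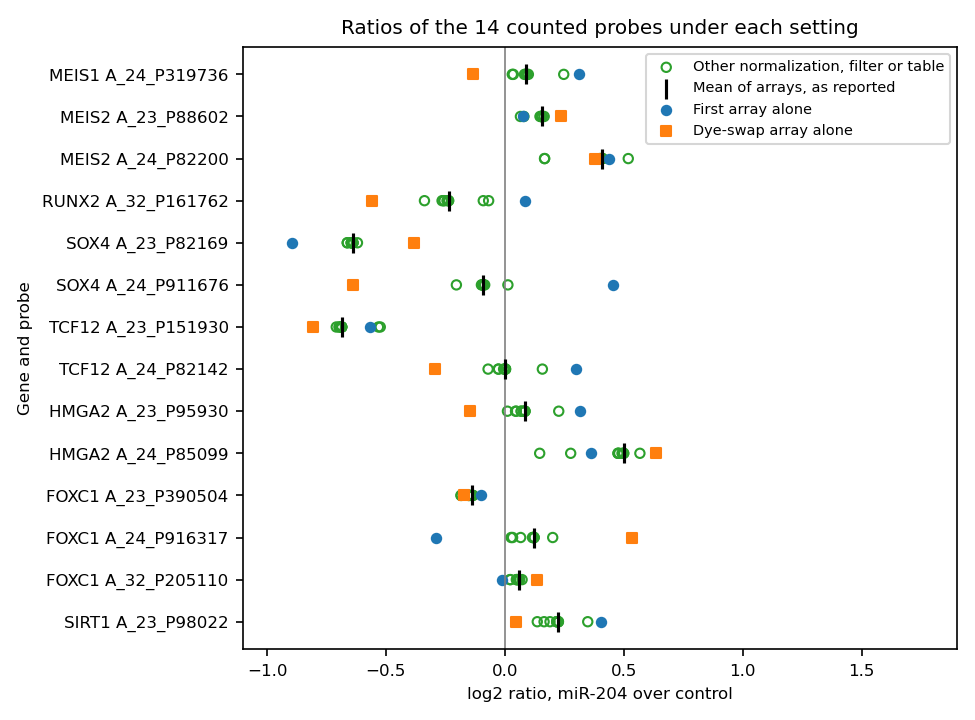
Log2 ratio of miR-204 over control (horizontal) of each of the 14 counted member probes in the mean of the arrays (bar), on each array alone (filled circle and square) and under other normalizations, filters and deposited tables (open circles). The SOX4 and TCF12 probes at -0.64 and -0.69 lie between -0.71 and -0.52 under the other settings, with the TCF12 probe short of 1.5-fold at -0.52 and -0.53 and the SOX4 probe at -0.38 on the dye swap alone.

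The study's methods name a t-test, and limma was run beside it. The t-test set the 2 miR-204 channels against the 2 control channels and left out their pairing within an array. Limma was run on the ratio of each array, which keeps that pairing. Both run over 2 arrays counted as 1 replicate, since no second transfection is named, and so give no test of the conditions. Before adjustment, 2 of 14 member probes passed by the methods' t-test, 1 probe each of MEIS2 and TCF12, where 6.34% of all counted probes did. By limma 2 of 14 passed, the SOX4 and TCF12 probes described above, where 4.66% did. After Benjamini-Hochberg adjustment over all counted probes the count was 0 of 14 by either test, and limma's adjusted p was 0.9999 for each of the 14 probes.

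To set the members beside their relatives, a list of 26 genes of the same families or of known protein partners was described in the same way. The list held 42 probes, of which 41 were counted, with each of the 26 genes represented. As for the members, 0 of 41 were lower and 0 higher by 2-fold in the mean, and 1 was lower at 1.5-fold. On both arrays, 14 of 41 were lower and 6 higher, or 34.1% and 14.6%, beside 23.2% and 24.2% of all counted probes. The probe past 1.5-fold, of RUNX1, is among the 14. It was counted through control alone, so the filter itself favoured a lower ratio. The median log2 ratio over the 41 probes was -0.07.

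Among MEIS3, its TALE relatives PKNOX1 and PKNOX2, and their PBX partners, 13 probes of 7 genes were counted. On both arrays 1 was lower and 5 were higher, beside 23.2% and 24.2% of all counted probes. PKNOX1, a TALE homeodomain protein that binds the same PBX partners, had means of 0.31, 0.33 and 0.48 for its 3 probes. The last of these had 1.01 on the first array and -0.05 after the dye swap. The PBX genes were mixed, from -0.40 for a probe of PBX2 to 0.21 for PBX4. The other PBX2 probe was at 0.15, so that this gene too gave no single direction.

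In the RUNX family, 3 of 5 probes were lower on both arrays and 0 higher, beside 23.2% and 24.2% of all counted probes. These 3 include a RUNX1 probe counted through control alone, where the filter itself favoured a lower ratio. CBFB, the subunit that stabilizes RUNX proteins on DNA, had means of -0.39 and -0.07. The probe of RUNX3 was at -0.25, with ratios of -0.10 and -0.41. RUNX1, a regulator of blood formation, had a dim probe, A_24_P917783, at -0.64 that passed the background flag in control alone, and a brighter one at -0.07. The dim probe is the 1 of 41 past 1.5-fold, and its ratio is read with that limit.

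SOX11, of the same group as SOX4, was lower on both arrays with both probes, at -0.44 and -0.26. The first had ratios of -0.69 and -0.20, and the second of -0.12 and -0.39. SOX12, also of that group, had means of -0.32 and 0.13 and turned sign with each probe. Of the family of TCF12, the E proteins TCF3 and TCF4 and the ID inhibitors that bind them, 5 of 8 probes were lower on both arrays and 0 higher. The shares of all counted probes were 23.2% and 24.2%. The means lay between -0.25 for TCF4 and 0.15 for a probe of ID2. Some of the lower probes were near 0, such as a TCF3 probe at -0.03 and -0.06 and an ID2 probe at -0.09 and -0.06. TCF4 had -0.25 on each array, and ID3 had -0.31 and -0.16. HMGA1, the relative of HMGA2, had means of -0.54 and -0.19, the first with -0.60 and -0.48. The second, from the brighter probe, had -0.40 and 0.02 and thus turned sign. FOXC2 was at -0.22, with -0.21 and -0.23. The 8 counted probes of SIRT2 to SIRT7, the other sirtuins, lay between -0.12 and 0.24. On both arrays 1 was lower and 1 higher, beside the same 23.2% and 24.2%.

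**Figure D5:**
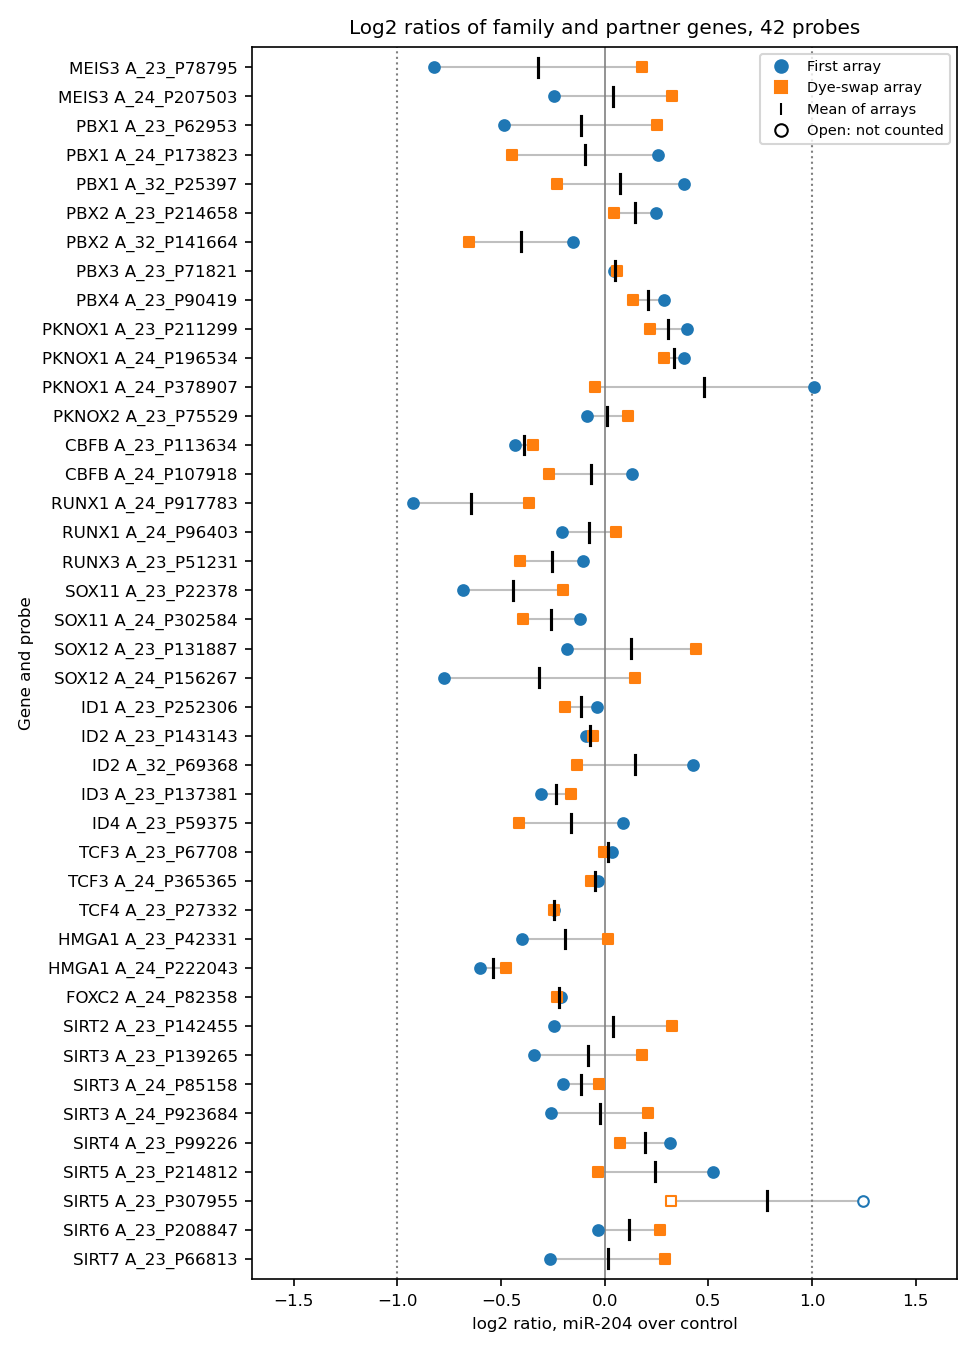
Log2 ratio of miR-204 over control (horizontal) for the 42 probes of 26 family and partner genes on the first array (circles) and the dye-swap array (squares), with the mean as a bar, dotted lines at 2-fold and open symbols where a probe was not counted. The 41 counted means lie between -0.64 and 0.48, and 14 probes are lower and 6 higher on both arrays. The lowest mean, of a RUNX1 probe among these 14, is from a probe counted through control alone.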

How the data were processed

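RNA of HEK-293 cells with a miR-204 mimic and RNA of cells with scramble oligos were read on 2 arrays of 1 dye swap, counted as 1 replicate. The authors extracted the deposited intensity values with Feature Extraction 9.5.3.1, which subtracts background and normalizes the dyes. The deposited mean signals, also intensity values, are uncorrected. The deposited log ratio column is the log10 of Cy5 over Cy3, and the authors' series table holds log2 ratios quantile normalized by them, with medians of 0.01 and -0.02. Flags for background, saturation and outliers are deposited as other values of 0 or 1.

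Here, control spots and 128 flagged probes were left out and spots of a probe averaged. Log2 processed intensities were quantile normalized over the 4 channels (limma 3.58.1, R 4.3.3), the dye swap was turned and the 2 ratios averaged. Quantile normalization, the 2-fold rule and limma were tested on simulated data with planted changes larger than any mean ratio given here. The simulation held no dye effect, background flags or repeated spots, so it does not show how small differences are recovered. Depth does not apply to arrays: their number limits the precision. Of the 17 member probes, 13 carry an accession that RefSeq (GRCh38.p14) gives to the same gene, as do 36 of 42 family probes, and the other names are those of the files. Probe positions are on hg18. The exon of a probe and 3′ UTR sites were not analysed here. AAAGGGA, searched on the transcript strand only, occurs in 0 of 13 RefSeq promoter windows of 7 members (300 bases each) and in 3.48% of all such windows, which are not the sites of microRNAs. Members, lists, markers and alternatives were chosen with earlier results of these data known. All 8 members and all 26 family genes are named, and none for a like pattern.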

Additional observations from a re-analysis of the deposited data

How the results depend on the processing

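No member probe was past 2-fold in either direction under any of the settings run for it, other than the lower threshold. Of 14 probes, 12 kept their direction under the 7 other settings that used both arrays and gave values of their own. The exceptions were the probe A_24_P911676 of SOX4, at 0.01 with quantile normalization of the ratios, and A_24_P82142 of TCF12, down to -0.07 in the authors' series table. At 1.5-fold, 2 member probes were lower, and 1 family probe, of RUNX1 and counted through control alone. With either loess setting it was 1 member probe, and the probe A_23_P151930 of TCF12 was at -0.52 and -0.53. On the first array alone it was also 1, A_23_P82169 of SOX4. On the dye swap alone, A_24_P911676 of SOX4 took the place of A_23_P82169, and A_24_P85099 of HMGA2 was past 1.5-fold higher. With 1 array left out, the member probes lower on the array used were between 5 and 8, those higher between 6 and 9, and family probes higher by 2-fold between 0 and 1, a probe of PKNOX1 at 1.01 on the first array. The median over the members lay between -0.14 on the dye-swap array alone and 0.19 on the first. Setting each array's median to 0 was chosen after seeing the data and changed none of these counts. Without the filter on signal 6 member probes were higher on both arrays, 2 of them uncounted probes near background. The mean of RUNX2 was then 0.22, against -0.24 with its counted probe alone. The mean of FOXC1, 0.02, was below 0 under 4 settings, down to -0.14 with its brightest probe alone. The cause was not tested. With 2-fold required as well, 0 member probes passed limma or the t-test of the methods, before or after adjustment.

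Each ratio already pairs control and miR-204 within an array. Limma was run on these ratios, while the t-test left out this pairing. A second transfection, which would give further pairs, is not named. Signal over background limits RUNX2, the probe A_24_P85099 of HMGA2 and the probe A_24_P944702 of TCF12. The probes A_24_P82200 of MEIS2 and A_24_P916317 of FOXC1 passed the background flag in all 4 channels but were also dim.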
